A study of Rattus norvegicus with 13 samples.

Results

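Thyroglobulin and the dual oxidase system were examined on 13 thyroid arrays through 5 genes, Tg, Duox1, Duox2, Duoxa1 and Duoxa2. Every gene probe that carried one of these 5 names was kept, which gave 7 probes of 45598 distinct probes on the array, 3 of them for Tg and 1 for each of the other genes. The animals were male Wistar rats whose dams had received potassium iodide (KI) or saline by gavage during mid-gestation. The KI-treated group held 6 animals and the saline control group held 7, and the thyroid was taken about a month after weaning. The exposure was therefore that of the dam, and the offspring themselves were not dosed. The sources used here do not say which animals shared a litter, so the p-values measure the spread between animals and treat littermates as independent.

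Thyroid hormone is made on thyroglobulin, a large secreted protein that fills the lumen of the thyroid follicle. Its tyrosine residues are iodinated at the apical membrane of the follicular cell, a reaction that consumes hydrogen peroxide. The peroxide is produced by the dual oxidases DUOX1 and DUOX2, members of the NADPH oxidase family. Each oxidase leaves the endoplasmic reticulum with the help of a maturation factor, chiefly DUOXA1 for DUOX1 and DUOXA2 for DUOX2. Loss of Tg, DUOX2 or DUOXA2 function is a known cause of congenital hypothyroidism.

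The 4 oxidase genes lie side by side on rat chromosome 3, in the order Duox2, Duoxa2, Duoxa1 and Duox1, with no other annotated gene between them in RefSeq on the GRCr8 build. The oxidase and the maturation factor of each pair point away from each other. Between Duox2 and Duoxa2 lay 51 bases, at chr3:129698887-129698937. Between Duoxa1 and Duox1 lay 14 bases, at chr3:129714111-129714124. Both stretches are printed on the plus strand, because they are the whole sequence that separates the start of each oxidase from the start of its partner, and capitals mark the letters TATAAA.
Duox2 to Duoxa2: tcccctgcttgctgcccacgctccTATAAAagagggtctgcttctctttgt
Duoxa1 to Duox1: tgtccgctcttcac
Of 33469 RefSeq promoter windows of 300 bases around the gene start, 14.2% held TATAAA and 33.1% held GGGCGG, each searched on both strands. The Duox2 promoter held both motifs, the Duoxa1 promoter held GGGCGG only, and the Duox1 promoter held neither. The TATAAA marked above reads on the plus strand, which is the strand of Duoxa2, whereas Duox2 lies on the minus strand. A search on both strands does not assign a motif to either gene of a pair. The GC content was 55.3% for Duox2, 66.7% for Duoxa1 and 43.7% for Duox1, against a median of 51.7% over all promoters. Tg and Duoxa2 were not analysed here for promoter motifs.

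The probes were 60 bases long, and their positions are those of the array files, on the rn4 build. The 3 Tg probes spanned 181681 bases of chromosome 7 and were listed under different transcript variants. The probe with the highest Tg signal lay at chr7:104219694-104219753 and started at base 8082 of the thyroglobulin transcript. The second Tg probe, at chr7:104220690-104220747, started at base 8396 of the same transcript. The third lay far upstream, at chr7:104039067-104039126, and started at base 621 of a transcript listed as another variant. Duox1 was read at chr3:109128329-109128388 and Duox2 at chr3:109059633-109059692, both near the 3′ end of their transcripts. Duoxa1 was read at chr3:109082646-109082705 and Duoxa2 at chr3:109081149-109081208. Whether each probe lies in coding sequence or in a UTR was not determined here. The sequences of 3 probes are given 5′ to 3′, in the sense of the transcript, so that the part of Tg and of the maturation factors that was read can be found in any build.
Tg, highest signal: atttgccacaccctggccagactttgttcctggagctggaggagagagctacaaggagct
Duoxa1: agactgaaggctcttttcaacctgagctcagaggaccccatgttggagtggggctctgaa
Duoxa2: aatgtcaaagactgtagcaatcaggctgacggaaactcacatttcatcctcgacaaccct

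Between 34840 and 41050 of 58717 gene spots per array were well above background. The 13 arrays resembled each other, with a Pearson's r between 0.955 and 0.992 over 20714 probes. The thyroid label held against its markers, since all 6 follicular cell markers (Tg, Slc5a5, Tshr, Pax8, Nkx2-1 and Foxe1) were well above background on 13 of 13 arrays. Levels are given as log2 signal minus the 75th percentile of the array, so that a level of 0 lies at that percentile. This percentile itself was lower on 2 control arrays than on all others, 7.92 on control replicate 6 and 8.18 on control replicate 4, against 8.48 to 9.10 elsewhere (log2 signal). Both were read in the first of 3 scan sessions, together with KI-treated replicates 2 and 3. All 7 probes were single spots, were well above background on every array and were saturated on none.

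After adjustment, none of the 7 probes passed the test of KI-treated against control animals (limma with Benjamini-Hochberg adjustment, 0 of 7 at 0.05). The same held for the whole array, on which 0 of 25717 tested probes passed, 0% of those tested. At an unadjusted p under 0.05, 2 of the 7 probes were called, both of Tg and both lower in the KI-treated group. On the whole array 3271 probes or 12.7% were called in either direction, and 7.01% with lower values in the KI-treated group. All 7 fitted differences were below 0, with a median log2 difference of -0.28, and so were 60.7% of all tested probes, with a median of -0.08. The probes share arrays, and 3 of them share a gene, so the count of 7 is a description.

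**Figure D1:**
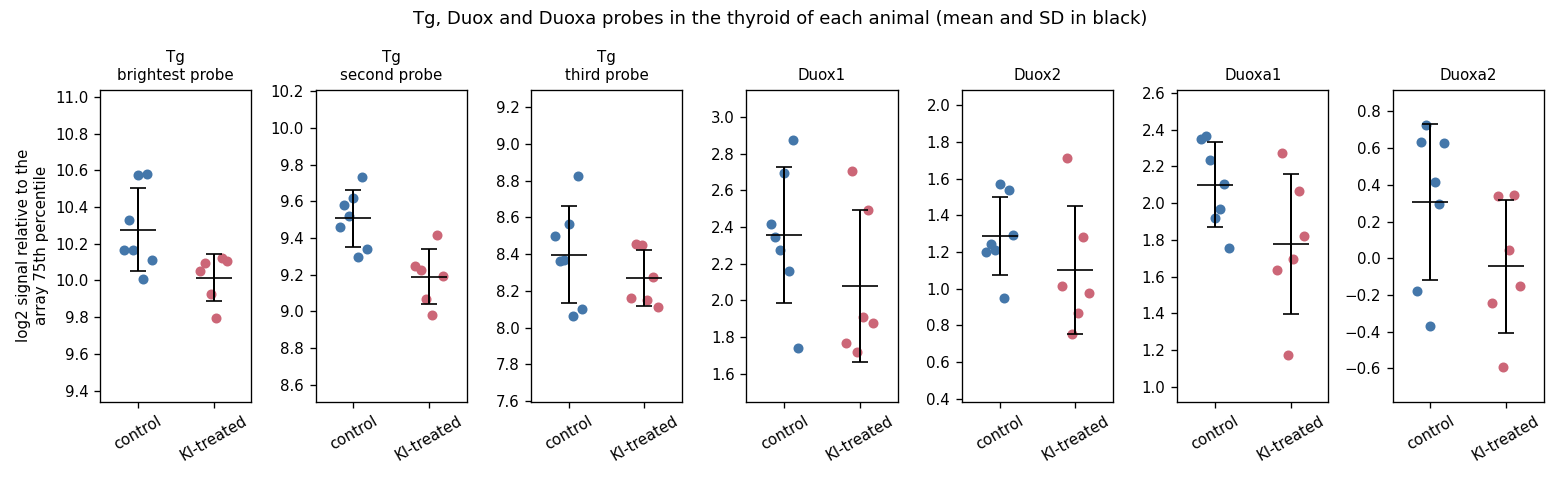
Level of each probe in each animal, as log2 signal relative to the array's 75th percentile, with 1 point per animal (7 control, 6 KI-treated) and the group mean and SD in black. The panels have the same height in log2 units but different positions, and only the second Tg probe places most KI-treated animals (5 of 6) below every control animal. The share of all tested probes that do so was not computed.

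Tg, the gene of the hormone precursor itself, had a small spread between animals on this scale. At the probe with the highest signal, the control animals lay between 10.01 and 10.58 with a median of 10.17 (log2 level). The KI-treated animals lay between 9.80 and 10.12 with a median of 10.07. All 6 KI-treated animals were thus below the control median, but only 2 were below the lowest control, so the groups overlapped. The mean was 10.28 ± 0.23 (SD, n = 7) in the control group and 10.02 ± 0.13 (SD, n = 6) in the KI-treated group. The log2 difference was -0.26 with a standard error of 0.12, a ratio of 0.834 (adjusted p = 0.390 by limma, two-sided exact permutation p = 0.0245, unadjusted).

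The second Tg probe, further downstream on the same transcript, separated the groups further. Its control levels ran from 9.30 to 9.73 with a median of 9.52, and its KI-treated levels from 8.98 to 9.42 with a median of 9.21. Of the 6 KI-treated animals, 5 lay below the lowest control, and KI-treated replicate 5 lay within the control range. The means were 9.51 ± 0.15 (SD, n = 7) and 9.19 ± 0.15 (SD, n = 6), a log2 difference of -0.32 with a standard error of 0.11. Its adjusted p was 0.354 by limma, and the exact permutation p was 0.00466, where 1716 splits of the arrays allow none under 0.00117.

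The upstream Tg probe did not separate the groups. Control levels ran from 8.06 to 8.83 (median 8.37) and KI-treated levels from 8.11 to 8.46 (median 8.22), so the KI-treated range lay inside the control range. The log2 difference was -0.13 with a standard error of 0.13 and a 95% interval from -0.41 to 0.16 (adjusted p = 0.617 by limma). Whether the downstream probes moved more than the upstream probe was tested within each array. The second probe minus the upstream probe was 1.11 ± 0.14 (SD, n = 7) in the control and 0.92 ± 0.21 (SD, n = 6) in the KI-treated group, with an exact permutation p of 0.0862 and an adjusted p of 0.914 over 11 such comparisons. A difference between the second probe and the upstream probe, which are listed under different transcript variants, was therefore not detected.

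The lower Tg level of the KI-treated group depended on the scaling of the arrays. Before scaling, the log2 signal of the probe with the highest Tg signal was 18.80 ± 0.15 (SD, n = 7) in the control and 18.83 ± 0.10 (SD, n = 6) in the KI-treated group, with an exact permutation p of 0.721. Its unscaled signal covered 0.45 log2 units over the 13 arrays, and controls 4 and 6, which gave the highest scaled Tg levels of 10.58 each, had the unscaled signals 18.75 and 18.50, neither of them above the control mean. Their 75th percentiles were the lowest of the series. Without these 2 arrays the log2 difference was -0.14 with a standard error of 0.09 (adjusted p = 0.656 by limma), a setting chosen after seeing the data. In that setting the second Tg probe was at -0.25 (standard error 0.10) and the third at -0.01 (standard error 0.11). In the log2 values the authors deposited, the probe with the highest Tg signal was at -0.02. It was at 0.07 under quantile normalization and at 0.03 without any scaling, so its direction turned under the last pair of settings. Without any scaling, the median over all tested probes was 0.21, and the Tg probe lay below that median as it did below the median of -0.08 after scaling.

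Across the 13 arrays, the scaled level of the probe with the highest Tg signal followed the array percentile closely (Pearson's r = -0.94, Spearman's rho = -0.85, and r = -0.85 without controls 4 and 6). The r was -0.81 for the second Tg probe and -0.80 for the third, and -0.67 and -0.45 without controls 4 and 6. It was -0.62 for Duox1, -0.60 for Duox2, -0.23 for Duoxa1 and 0.04 for Duoxa2, and -0.19, -0.33, -0.32 and -0.18 without those 2 arrays. The percentile is itself subtracted in each level, so these values are a description and carry no p. The order of the 4 oxidase genes thus depended on controls 4 and 6, while the downstream Tg probes had the largest sizes with and without them.

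**Figure D2:**
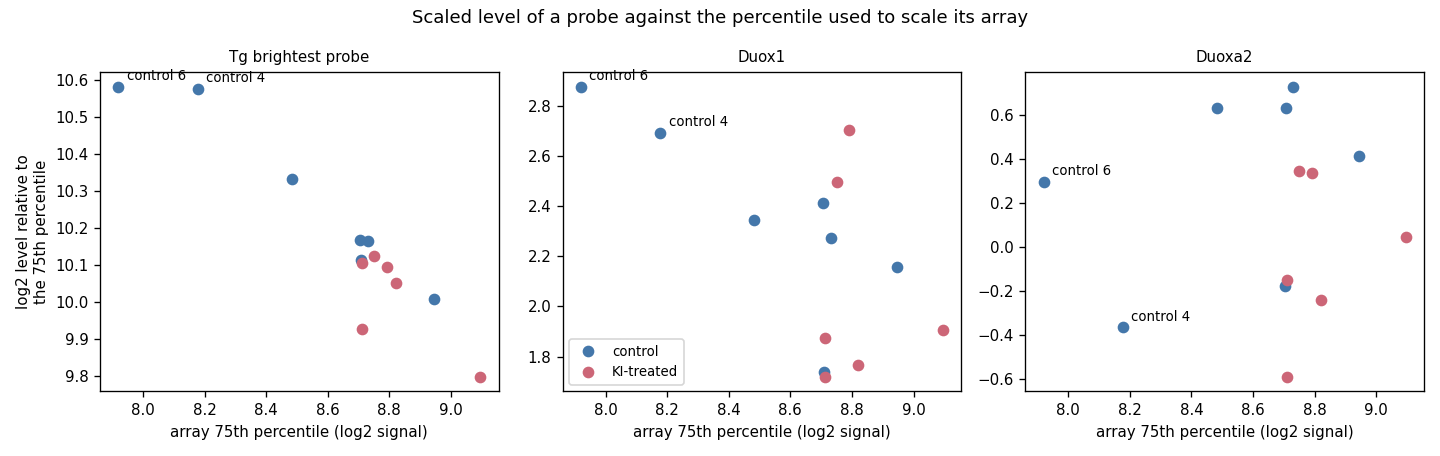
Scaled level of 3 probes (log2 signal relative to the 75th percentile) against the 75th percentile of the same array (log2 signal), with 1 point per array. The Tg levels fall along the percentile (r = -0.94) with controls 4 and 6 at the upper left, the Duox1 levels do so less (r = -0.62), and the Duoxa2 levels do not (r = 0.04).

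Duox1 and Duox2, the peroxide-producing oxidases, varied more between animals than Tg. Duox1 ran from 1.74 to 2.88 in the control animals (median 2.34) and from 1.72 to 2.71 in the KI-treated animals (median 1.89). KI-treated replicates 2 and 5, at 2.71 and 2.50, lay in the upper control range, and the other 4 KI-treated animals lay between 1.72 and 1.91. The means were 2.36 ± 0.37 (SD, n = 7) and 2.08 ± 0.42 (SD, n = 6). The log2 difference was -0.28 with a standard error of 0.21 and a 95% interval from -0.72 to 0.16 (adjusted p = 0.510 by limma, exact permutation p = 0.219). The groups overlapped over nearly the whole range.

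Duox2 is the main oxidase of the thyroid follicle. Its control levels ran from 0.95 to 1.57 (median 1.25), and its KI-treated levels from 0.75 to 1.71 (median 0.99). The highest and the lowest Duox2 level of the series were both in the KI-treated group, in replicates 2 and 3. The means were 1.29 ± 0.21 (SD, n = 7) and 1.10 ± 0.35 (SD, n = 6), with a log2 difference of -0.19, a standard error of 0.16 and a 95% interval from -0.52 to 0.15 (adjusted p = 0.554 by limma). For both oxidases the direction turned without scaling, to 0.01 for Duox1 and 0.10 for Duox2, and it was kept under the other 14 alternatives.

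Duoxa1, which carries DUOX1 to the membrane, ran from 1.76 to 2.36 in the control animals (median 2.10) and from 1.17 to 2.27 in the KI-treated animals (median 1.76). KI-treated replicate 3 was the lowest of the series, and 3 of the 6 KI-treated animals lay below the lowest control. The means were 2.10 ± 0.23 (SD, n = 7) and 1.78 ± 0.38 (SD, n = 6). The log2 difference was -0.32 with a standard error of 0.17 and a 95% interval from -0.69 to 0.04 (adjusted p = 0.414 by limma, exact permutation p = 0.0874).

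Duoxa2, the partner of DUOX2, had the widest range over the 13 animals, 1.32 log2 units. Control levels ran from -0.37 to 0.73 (median 0.41) and KI-treated levels from -0.59 to 0.34 (median -0.05). Control replicates 1, 4 and 6, at -0.18, -0.37 and 0.29, lay among the KI-treated animals, whereas the other 4 controls lay above the highest KI-treated animal. The means were 0.31 ± 0.43 (SD, n = 7) and -0.04 ± 0.36 (SD, n = 6), a log2 difference of -0.35 with a standard error of 0.21 and a 95% interval from -0.80 to 0.09 (adjusted p = 0.445 by limma, exact permutation p = 0.139). Duoxa1 and Duoxa2 were lower in the KI-treated group under all 15 alternative settings, from -0.40 to -0.03 for Duoxa1 and from -0.52 to -0.06 for Duoxa2, and passed the adjusted threshold under none.

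**Figure D3:**
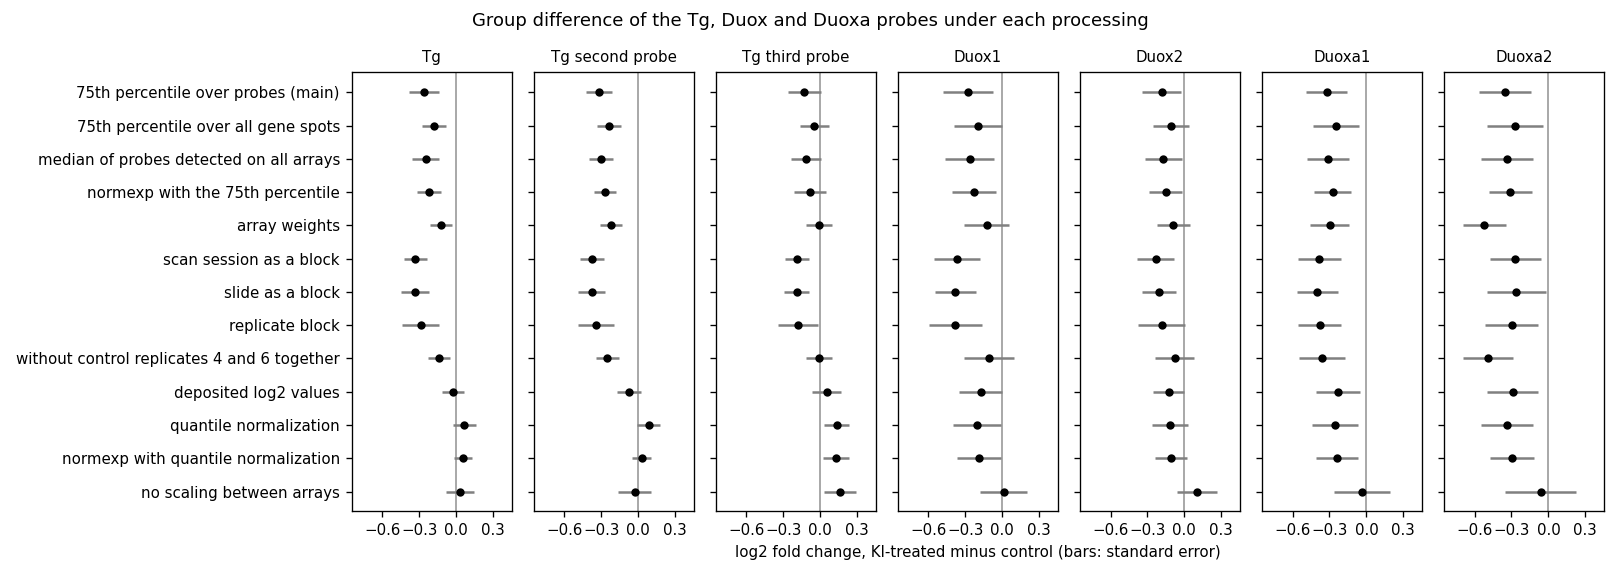
Log2 difference between the KI-treated and control group (horizontal axis, bars show the standard error) for the 7 probes under the scaling used throughout and 12 other settings. The estimates of the Tg probe with the highest signal move to the right of 0 under quantile normalization and without scaling (0.07 and 0.03), while those of Duoxa1 and Duoxa2 stay to the left of 0 in each row.

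Each scan session held animals of both groups, 4, 5 and 4 arrays, so the difference could be read within sessions. All 7 probes were lower in the KI-treated animals in each of the 3 sessions. For the probe with the highest Tg signal the log2 differences were -0.57, -0.16 and -0.30, and for Duoxa2 they were -0.09, -0.25 and -0.55. The third session held a single KI-treated animal, and no test was run within a session. The only controls of the first session were replicates 4 and 6, whose array percentiles were the lowest of the series. They were also the only controls of slides 1 and 2, so these comparisons were not independent of the scaling. The share of all tested probes that were lower in all 3 sessions was not computed. Over all arrays, 60.7% of the tested probes had fitted differences below 0. Within the 5 slides that held both groups, each with 2 or 3 animals, the Tg probes were lower in the KI-treated animals on every slide, but the other genes were not. On slide 1 Duoxa2 was at 0.70, Duoxa1 at 0.35, Duox2 at 0.15 and Duox1 at 0.01, and on slide 4 Duoxa2 was at 0.52, Duox2 at 0.09 and Duox1 at 0.08 (log2 differences). With the session as a block, the lowest adjusted p of the 7 probes was 0.154, for the second Tg probe. The session means ran in opposite directions for different genes. The mean of Duoxa2 was -0.08, 0.08 and 0.45 in the sessions in turn, and that of Duox1 was 2.50, 2.18 and 2.02.

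The spread between animals differed among the genes. The pooled SD was 0.19, 0.15 and 0.22 for the 3 Tg probes, smaller than that of most tested probes, since 12.2%, 4.83% and 22.1% of these had a smaller one. Duox1 and Duoxa2 lay on the other side, with pooled SDs of 0.39 and 0.40 (67.3% and 68.4% of tested probes had a smaller one), and Duox2 and Duoxa1 near the middle, with 0.28 and 0.31. Tg thus varied less between animals than the oxidases and their maturation factors on this scale. Before scaling, the Tg probes covered 0.45 to 0.60 log2 units over the 13 arrays, and the probes of the other genes 1.05 to 1.65. The signals differed too, from 109574 to 507060 for the Tg probes and from 225 to 2891 for the others. Whether the height of the signal affected the spread was not tested.

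Animals with more Duox1 also had more Duox2. Across the 13 animals Pearson's r was 0.82 (permutation p = 0.00067, adjusted 0.00435 over 13 pairs) and Spearman's rho was 0.72 (permutation p = 0.0071, adjusted 0.0309). Without control 6 and KI-treated 3, the animals farthest from the Duox1 median, r was 0.75, and with the group means subtracted it was 0.80. It was 0.77 under quantile normalization and 0.77 with the session means subtracted, the last with an adjusted p of 0.0538. Controls 4 and 6 and KI-treated 2 were high in both genes, and KI-treated 3 was lowest in both.

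Each oxidase was then set against its own maturation factor. Duox1 and Duoxa1 gave r = 0.72 (permutation p = 0.0049, adjusted 0.0144) and rho = 0.73 (permutation p = 0.0062, adjusted 0.0309), with r = 0.72 without control 6 and KI-treated 3. Duox2 and Duoxa2 gave r = 0.34 (permutation p = 0.260, adjusted 0.307) and rho = 0.26 (permutation p = 0.381, adjusted 0.451), and 0.07 without KI-treated 2 and 3. With the session means subtracted, these r values were 0.91 and 0.73, each with an adjusted permutation p of 0.00966. With the group means subtracted they were 0.66 and 0.22, with adjusted permutation p of 0.0504 and 0.549. The difference between the pairs was not tested. The maturation factors gave r = 0.60 with each other (permutation p = 0.0275, adjusted 0.0397) and rho = 0.53 (permutation p = 0.0672, adjusted 0.0978), but r was 0.28 without control 2 and KI-treated 3, so over all arrays this relation rested on those animals. It was 0.73 with the session means subtracted (adjusted permutation p = 0.0275) and 0.50 with the group means subtracted (adjusted permutation p = 0.124).

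Tg ran with the oxidases only under some scalings. With the 75th percentile, r was 0.72 with Duox1 (permutation p = 0.0040, adjusted 0.0144) and rho was 0.66 (permutation p = 0.0168, adjusted 0.0437). Without controls 4 and 6 this r was 0.48, and under quantile normalization it was -0.35. With Duox2, r was 0.72 (permutation p = 0.0055, adjusted 0.0144), rho was 0.69 (permutation p = 0.0121, adjusted 0.0393), r without controls 4 and 6 was 0.57, and under quantile normalization it was -0.18. All probes of an array share its percentile, which enters both levels of each pair. The relation of Tg to either oxidase thus did not hold under quantile normalization, while that of Duox1 to Duox2 did.

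**Figure D4:**
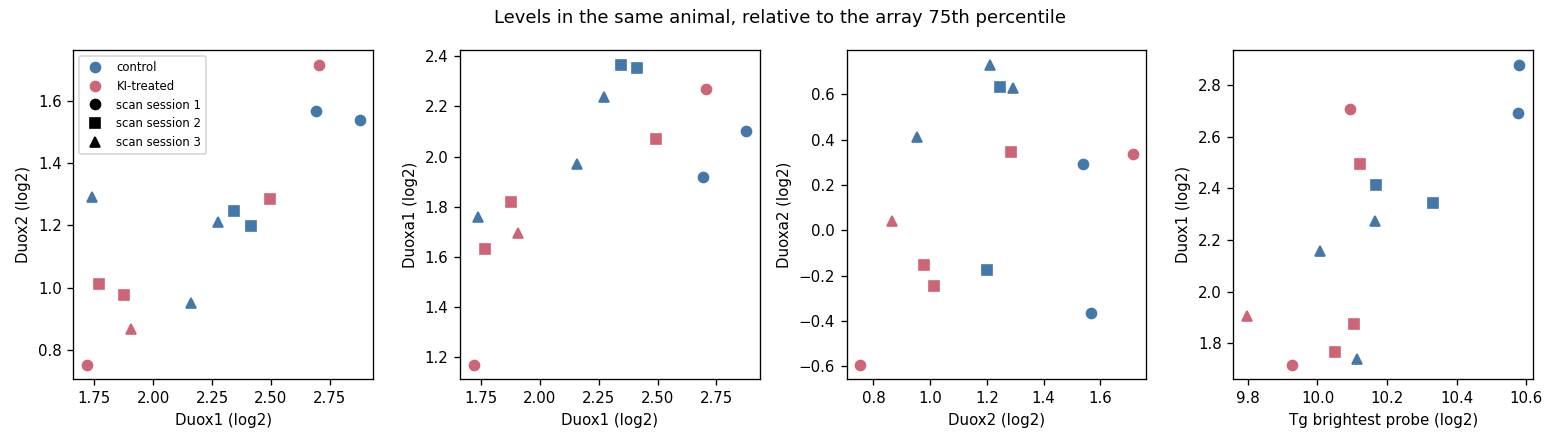
Levels of pairs of genes in the same animal (both axes log2 signal relative to the array's 75th percentile), coloured by group and shaped by scan session. Duox1 and Duox2 run together (r = 0.82), as do Duox1 and Duoxa1 (r = 0.72), whereas Duox2 and Duoxa2 scatter widely (r = 0.34) and the Tg relation to Duox1 (r = 0.72) leans on controls 4 and 6 at the upper right.

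The 3 Tg probes ran together to different degrees. The downstream probes gave r = 0.92 (permutation p = 1e-05, the smallest that 100000 permutations can give) and rho = 0.94 (permutation p = 2e-05), and r was 0.91 without controls 4 and 6. The probe with the highest signal gave r = 0.71 with the upstream probe (permutation p = 0.0069, adjusted 0.0149) and rho = 0.60 (permutation p = 0.0319, adjusted 0.0592), and r was 0.31 without controls 4 and 6. Under quantile normalization the first r was 0.72 and the second 0.12, with adjusted permutation p of 0.200 and 0.909.

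The genes whose pattern over the 13 arrays was most like that of each gene were taken from 11297 genes well above background on every array, as a description without a test. For Tg, 640 genes had an r over 0.8, among them the ribosomal protein genes Rplp1 (r = 0.96, rho = 0.88) and Rpl41 (r = 0.95, rho = 0.88). Next came Slc51a, an organic solute transporter subunit (r = 0.94), and Gnas, the stimulatory G protein subunit downstream of the TSH receptor (r = 0.94). Under quantile normalization r with Tg was 0.37 for Rplp1, 0.76 for Rpl41, -0.60 for Slc51a and -0.36 for Gnas. The median r of all genes with Tg was 0.40, and all levels share the array percentile.

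Duox1 had 26 such genes, led by Nrtn, which encodes neurturin (r = 0.87, rho = 0.85), followed by Acaa1a, Clta, Nfatc4 and Fxyd6 (r between 0.84 and 0.86). Duox2 stood in place 6 of the Duox1 order. Duox2 had 68, led by Nmb, which encodes neuromedin B (r = 0.90, rho = 0.91), Pcsk4 (r = 0.90) and the circadian factor Dbp (r = 0.89), with Zswim7 and Tnfrsf21 after them (r = 0.88 and 0.87). Duoxa1 had 2, the peroxisomal enzyme gene Eci2 (r = 0.91, rho = 0.90) and Caskin1 (r = 0.82), followed by Slc27a1, Car9 and Hspb2 (r between 0.76 and 0.80), and Duox1 stood in place 12 of its order. No gene passed 0.8 with Duoxa2, where Cdk8 (r = 0.79, rho = 0.79), Bsg, Gbx2, Arl4d and Nedd4l (r between 0.74 and 0.78) came first.

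None of the genes around this system passed the adjusted threshold either. Of 16 genes of thyroid hormone synthesis, 15 were tested, and 2 had fitted values above 0 and 13 below, with a median of -0.13. The iodide transporter gene Slc26a4 was not well above background on any array. The largest differences were those of Dio1, the type I deiodinase (0.47, SE 0.22), the transcription factor gene Hhex (-0.44, SE 0.35), the iodide transporter gene Slc26a7 (-0.36, SE 0.16) and Gnas (-0.31, SE 0.12), with adjusted p between 0.367 and 0.531 by limma. The median of this list was -0.04 under quantile normalization.

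The other NADPH oxidases and their subunits counted 10 tested genes of 12, the 2 dual oxidases not among them. Of the tested genes, 3 lay above and 7 below 0, with a median of -0.09, or -0.01 under quantile normalization. The largest difference there was that of Rac1, a small GTPase that some NADPH oxidases need, which was 0.45 (SE 0.16, adjusted p = 0.356 by limma). Ncf4 was at 0.28 (SE 0.25) and Nox4 at -0.14 (SE 0.22), the last well above background on only 7 arrays. Nox3 was not well above background on any array.

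The endoplasmic reticulum genes that fold and export thyroglobulin had 6 of 10 values above 0 and a median of 0.18. Pdia3, a disulfide isomerase, was at 0.59 (SE 0.41), Hsp90b1, which encodes a chaperone, at 0.40 (SE 0.25), P4hb at 0.34 (SE 0.16) and Calr at -0.31 (SE 0.33), none with an adjusted p under 0.397 by limma. The genes that take thyroglobulin up and cut it had 2 of 9 values above 0 and a median of -0.22. The lysosomal protease gene Lgmn was at 0.43 (SE 0.14), Ctsd at -0.32 (SE 0.18), Ctsb at -0.31 (SE 0.15) and Ctss at 0.31 (SE 0.17), with adjusted p between 0.353 and 0.433 by limma. Under quantile normalization the median of this list was -0.11 and Ctsb was at -0.06.

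In whole thyroid, fewer follicular cells and less RNA per cell cannot be told apart. The summed level of the 6 follicular markers lay between 10.22 and 10.85 in the control animals and between 10.12 and 10.32 in the KI-treated animals, a sum that includes Tg. All 6 had fitted values below 0 with a median of -0.15, but under quantile normalization Tg was at 0.07, Slc5a5 at 0.09 and the median at -0.03. The summed level of 3 parathyroid markers ran from 8.63 to 9.38 in the control animals, highest in controls 4 and 6, and from 8.41 to 8.84 in the KI-treated animals. That of 4 C cell markers ran from 6.78 to 8.13 in the control, lowest in controls 4 and 6, and from 7.38 to 8.16 in the KI-treated animals. Their part in the Tg and oxidase values was not tested. Airway epithelium also expresses the dual oxidases. Of 6 airway markers Muc5b had no probe, and the other 5 all had fitted values below 0, with 1 of them, Foxj1, well above background on all arrays. Their median log2 difference was -0.30, also under quantile normalization. Their summed level ran from -0.22 to 0.59 in the control and from -0.42 to 0.27 in the KI-treated animals. Across the arrays this sum gave r = 0.56 with Duox1, 0.57 with Duox2, 0.63 with Duoxa1, 0.20 with Duoxa2 and 0.61 with Tg. All these levels share the array percentile, and the part of airway cells in the oxidase values was not tested. The summed skeletal muscle markers ran from 1.90 to 5.54 in the control, highest in control 5, and from 0.07 to 3.87 in the KI-treated animals. The lymphocyte sum was 1.14 in control 4 and 1.27 in KI-treated 1, against -1.83 to -0.80 in the other animals, and its part in the values of these animals was not tested.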

How the data were processed

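RNA from 13 rat thyroids was hybridised to one-colour Agilent arrays, 1 array per animal. The deposited scanner files, per the file headers made with Agilent Feature Extraction 10.7.3.1, give a background-corrected processed signal, a mean signal and a local background intensity per spot. The deposited flags (other columns) mark spots above background, saturated or outlying. The table of log2 values deposited by the authors was used only as an alternative; its scale is log2, with centring and normalization not stated. Its columns ranked probes as the mean signal did, and column medians were 7.16 to 7.30. No column of another sample was present (0).

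After removal of controls and of spots with an outlier flag, spots of 1 probe were averaged, and log2 signal minus the 75th percentile over distinct probes was tested. The 25717 of 45598 probes with a positive background flag on 6 or more arrays entered limma 3.58.1 in R 4.3.3, with empirical Bayes variances, the 13 arrays, no covariate and Benjamini-Hochberg adjustment at 0.05. Single probes were also tested by a two-sided exact permutation test over the arrays. Correlations were tested by 100000 permutations with numpy 2.4.6, with ranks from scipy 1.17.1. The code was tested on simulated data, with probes varying independently. There, 8 of 200 probes with a log2 change of 0.5 passed (4.0%), and 74.0% of those with a change of 1. The fitted differences for the probes of the 5 genes were all smaller in size than 0.5, so changes of that size would mostly be missed. Array number limits the precision. For a gene with several probes in the pathway lists, the brightest was used. At most 4 genes with the largest absolute difference were named per list, and the 5 most similar genes per member, except where a gene is not reported here. Alternatives covered scaling, background correction, filters, blocks, array weights and left-out arrays. The genes and lists were chosen with earlier results of these data known. Sequences came from the array files and from RefSeq (GRCr8), in which all 5 symbols matched. Cortex was not analysed here.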

Additional observations from a re-analysis of the deposited data

How the results depend on the processing

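None of the 7 probes passed the adjusted threshold under any of 15 alternatives or 13 left-out arrays. Directions turned as follows. Under quantile normalization the log2 differences of the Tg probes were 0.067, 0.083 and 0.13, and after normexp with quantile normalization 0.056, 0.028 and 0.13. Without scaling between arrays they were 0.028 for the first and 0.16 for the third Tg probe, 0.011 for Duox1 and 0.10 for Duox2. In the deposited log2 values the third Tg probe was at 0.053. The cause was not tested. Leaving out each array in turn moved the estimate for the Tg probes between -0.31 and -0.21, -0.36 and -0.28, and -0.19 (without control 5) and -0.06 (without control 6), Duox1 between -0.40 and -0.19, Duox2 between -0.31 and -0.12, Duoxa1 between -0.42 and -0.20, and Duoxa2 between -0.46 and -0.24. The lowest Duox1, Duox2 and Duoxa1 values came without KI-treated 2, and the highest Duox2, Duoxa1 and Duoxa2 values without KI-treated 3. Over the whole array, array weights gave 50 called probes (2 higher, 48 lower), none of them of these genes, and leaving out arrays gave 0 to 1, the 1 without control 1 or without control 2. The methods' t-test called 0 probes after adjustment.

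No pairing by replicate number was seen, since the deviations of same-numbered animals correlated between -0.22 and 0.06. The labels do not say what the numbers stand for, so this check cannot exclude a pairing. With the replicate number as a block, over replicates 1 to 6, the differences were -0.29 for Tg (adjusted p = 0.549 by limma), -0.38 for Duox1, -0.18 for Duox2, -0.38 for Duoxa1 and -0.30 for Duoxa2, and 0 probes passed.

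Of 13 pairs of probes, 9 correlated at an adjusted p under 0.05. The count was 7 with the 75th percentile over all gene spots and 6 with session means subtracted. It was 4 in the deposited values, 4 with group means subtracted and 2 under quantile normalization. Under quantile normalization r was -0.35 for Tg with Duox1, -0.18 with Duox2 and -0.037 with Duoxa2, and with group means subtracted it was -0.22 for Tg with Duoxa2. Spots near background were not at issue for these probes, and the number of animals set the precision.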
